A study of Homo sapiens with 12 samples.

Results

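The long noncoding and host transcripts of U251 cells, an established human glioblastoma line, were followed after small interfering RNA (siRNA) against ETV6, against NFKB1 or against both. Members were chosen by symbol alone: long intergenic (LINC), small nucleolar RNA host (SNHG) and microRNA host (MIR, ending in HG) genes, antisense (-AS) and divergent (-DT) transcripts, and a few noncoding genes listed by name. Of 10346 genes measured by a probe set of their own, 179 met this rule, and for each the brightest of its probe sets was used. They comprised 4 snoRNA hosts, 4 microRNA hosts, 86 antisense, 40 divergent and 44 intergenic transcripts and MALAT1. RefSeq lists 175 of them as lncRNA, and 4 were not matched to it. NEAT1 and GAS5 lay only on probe sets that name several genes, 6 and 4 of them, and so did SNHG transcripts on 19 probe sets; these, MEG3 and H19 were not analysed here.

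There were 4 groups of 3 arrays, 12 in all: ETV6 siRNA, NFKB1 siRNA, both siRNAs together (double siRNA), and a control siRNA with no known human target. All cells were transfected with DharmaFECT 2, the ETV6 and NFKB1 reagents were pools of several siRNAs, and each siRNA was given at 50 nM. The double transfection therefore held more siRNA in total than the others, and no control at that total was analysed here, so the amount of siRNA and the loss of both targets cannot be told apart. Whether the arrays within each group stem from independent cultures is not stated in the labels, so the p-values reflect only the spread between these samples, which may be technical. With so few arrays the precision of every value is limited. Levels are log2 probe set values, and a difference of 1 on this scale is a 2-fold change.

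Long noncoding RNAs are transcribed much like messenger RNAs but encode no known protein. Many are read from the opposite strand of a coding gene, either across it (antisense) or away from it out of a shared promoter region (divergent), and others serve as precursors whose introns release small nucleolar RNAs or microRNAs. The protein made from ETV6 is an ETS-type factor that represses transcription. That of NFKB1 is cut to yield p50, a DNA-binding subunit of NF-kB.

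The labels were checked against the targeted genes. ETV6 read 6.80, 6.78 and 6.60 with ETV6 siRNA, 8.73, 8.72 and 8.64 with NFKB1 siRNA, 7.44, 7.36 and 7.29 with double siRNA, and 9.02, 9.02 and 8.58 with control siRNA. NFKB1 read 6.95, 6.75 and 6.05 with NFKB1 siRNA, 6.50, 6.58 and 6.57 with double siRNA, 7.85, 7.74 and 7.85 with ETV6 siRNA, and 7.22, 7.24 and 7.49 with control siRNA. Each target was lowest where its siRNA was given, without overlap with the other arrays, although NFKB1 lay under the filter on low levels and was not tested. The astrocyte and glioma markers GFAP, VIM, SOX2, SOX9, CD44 and FABP7 averaged between 12.56 and 14.5, all above the 96th percentile of genes, while NES, S100B and CHI3L1 averaged 10.96, 8.68 and 8.22. NES, an intermediate filament gene of neural progenitors, averaged 10.17 with double siRNA and 11.33 with control siRNA. ALDH1L1 and the 8 markers of other cell types are not in the table used here. The median of all probe sets was 8.34 to 8.38 on the double siRNA arrays and 8.08 to 8.27 on the other 9 arrays, and the mean of the poly-A spike-in probe sets was 7.97 to 8.05 with double siRNA and 8.37 to 9.35 elsewhere. The difference between 3′ and 5′ probe sets of ACTB was 2.05 to 2.16 with double siRNA and 1.52 to 1.91 elsewhere. The 1.91 was that of control replicate 3. The part of these measures in the double siRNA results was not tested.

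The member with the largest change, MIR100HG, is the host of a microRNA cluster that is conserved among animals. Its 4 hairpins in RefSeq (GRCh38.p14) give 7 mature microRNAs on the minus strand of chromosome 11, and the 3 best known are shown with let-7b, which comes from the host MIRLET7BHG on the plus strand of chromosome 22. That host holds a copy of let-7a too. Capitals mark the seed, bases 2 to 8, which pairs with target messenger RNAs. The let-7a and let-7b sequences share their seed, and miR-100 and miR-125b have different ones. The arrays measured the host transcripts and not these microRNAs.
miR-100-5p, chr11:122152275-122152296: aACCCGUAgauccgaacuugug
let-7a-5p, chr11:122146568-122146589: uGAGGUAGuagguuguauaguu
miR-125b-5p, chr11:122099809-122099830: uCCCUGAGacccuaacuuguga
let-7b-5p, chr22:46113691-46113712: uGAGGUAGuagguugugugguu

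Because both targets are DNA-binding proteins, the promoter windows of RefSeq (GRCh38.p14, 250 bases before to 50 after a start) were searched on both strands for CCGGAAG, an extended ETS core, and for the NF-kB consensus. Windows are listed for 148 of the 179 members, 26 of which have more than 1 start. CCGGAAG stood in 16.9% of the 77 windows of tested members, in 18.2% of the windows of all tested genes and in 10.3% of all 35116 windows. For the NF-kB consensus the shares were 13.0%, 13.1% and 11.3%. Among members called higher with double siRNA 3 of 25 windows held CCGGAAG and 3 the NF-kB consensus, and among those called lower the counts were 3 and 6 of 30. These shares are descriptions, and a match is not a binding site. SOX21-AS1 and LINC03011 are shown as examples of both motifs in members that changed. Capitals mark the NF-kB consensus in SOX21-AS1, where 2 matches overlap, and CCGGAAG in LINC03011, where the first of 2 listed starts is given. Both run on the plus strand.
SOX21-AS1, chr13:94712466-94712765: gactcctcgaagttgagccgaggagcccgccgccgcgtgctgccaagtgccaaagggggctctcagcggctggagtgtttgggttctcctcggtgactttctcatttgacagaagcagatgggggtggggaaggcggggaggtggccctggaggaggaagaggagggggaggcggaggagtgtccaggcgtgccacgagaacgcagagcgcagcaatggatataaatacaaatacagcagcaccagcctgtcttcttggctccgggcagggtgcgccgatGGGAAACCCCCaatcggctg
LINC03011, chr7:66493382-66493681: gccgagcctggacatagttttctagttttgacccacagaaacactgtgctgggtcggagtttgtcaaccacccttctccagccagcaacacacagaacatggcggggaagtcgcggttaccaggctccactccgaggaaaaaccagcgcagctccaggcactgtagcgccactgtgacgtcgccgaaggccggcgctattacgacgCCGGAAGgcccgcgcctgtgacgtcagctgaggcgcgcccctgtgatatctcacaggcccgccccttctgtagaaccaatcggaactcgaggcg

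The members were faint as a group. Their median level was 7.0, against 8.77 over all genes, and SNHG32 (10.82), LINC00623 (10.71) and MALAT1 (10.65) were the brightest. Only genes whose mean level reached 7.54, the 25th percentile, were tested, which left 62 members among 7759 tested genes and 117 members under the limit. MAGI2-AS3 (7.55), LINC02762 (7.70) and LINC00467 (7.74) lay just above it, and TRAM2-AS1 (7.53), LINC00662 (7.52) and LINC00294 (7.49) just below it. All snoRNA hosts and MALAT1 were tested, as were 25 antisense, 13 divergent and 18 intergenic transcripts, but only MIR100HG of the microRNA hosts.

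With double siRNA a few members rose strongly and many more fell by small amounts. Of the 62 members 15 were called higher and 32 lower than control (limma, adjusted p under 0.05 over all genes tested), which is 24.2% and 51.6%, against 31.9% and 49% of all tested genes. The share of members called lower was near that of all genes, and the share called higher was below it. Their median log2 change was -0.19 against -0.13 over all tested genes. In every called member the double siRNA arrays lay all above or all below the control arrays; over all members they lay above in 15 and below in 34, against 33.5% and 50.8% of all tested genes. Of the tested members 4 were called higher by more than 2-fold and 0 lower by as much, against 7.28% and 0.464% of all tested genes. Shifting all arrays to the same median moved the median of all genes with double siRNA to -0.25. With that shift 11 members were called higher and 41 lower, against 26% and 56.7% of all tested genes. The share of higher calls among the members' calls fell to 21.2% with that shift, against 31.9% without it.

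With ETV6 siRNA alone 7 members were called higher (11.3%, against 4.38% of all tested genes) and 2 lower (3.23%, against 6.28%). With NFKB1 siRNA alone 16 were called higher (25.8%, against 15.5%) and 4 lower (6.45%, against 25.1%). Members were called higher more often than lower after either single siRNA, while all genes were called lower more often. This was less marked among the 25 brighter members that passed a filter at the 50th percentile. Of these, 5 were higher and 4 lower with NFKB1 siRNA (20% and 16%, against 16.3% and 26.4% of all genes). With ETV6 siRNA 2 were higher and 1 lower (8% and 4%, against 5.06% and 7.69%). In fits of only the groups compared 2 members were higher and 2 lower with ETV6 siRNA (0.838% and 1.56% of all tested genes). The counts with NFKB1 siRNA were 7 and 4 (7.15% and 16.8% of all tested genes). Of the members named as higher with ETV6 siRNA, LINC03011 alone kept its call in that fit. The arrays lay all above control in 15 members and all below in 3 with ETV6 siRNA (11.8% and 12.7% of all tested genes), and in 14 and 6 with NFKB1 siRNA (19.9% and 27.9%). The median log2 change of members was 0.07 in both comparisons, against 0.00 with ETV6 siRNA and 0.01 with NFKB1 siRNA over all genes. These counts rest on few arrays: 3 members were called higher with ETV6 siRNA when ETV6 replicate 1 was left out, and 8 with NFKB1 siRNA when NFKB1 replicate 1 or 2 was left out. The shares of all tested genes in those fits are not given here. A loss of calls particular to members therefore cannot be told from a loss over all genes. Arrays shifted to the same median gave 10 higher and 2 lower members with ETV6 siRNA (4.38% and 5.77% of all tested genes). With NFKB1 siRNA they gave 27 higher and 4 lower (32.4% and 19% of all tested genes). Of the calls over all genes with NFKB1 siRNA, 38.1% were higher as deposited and 63.1% after that shift.

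**Figure D1:**
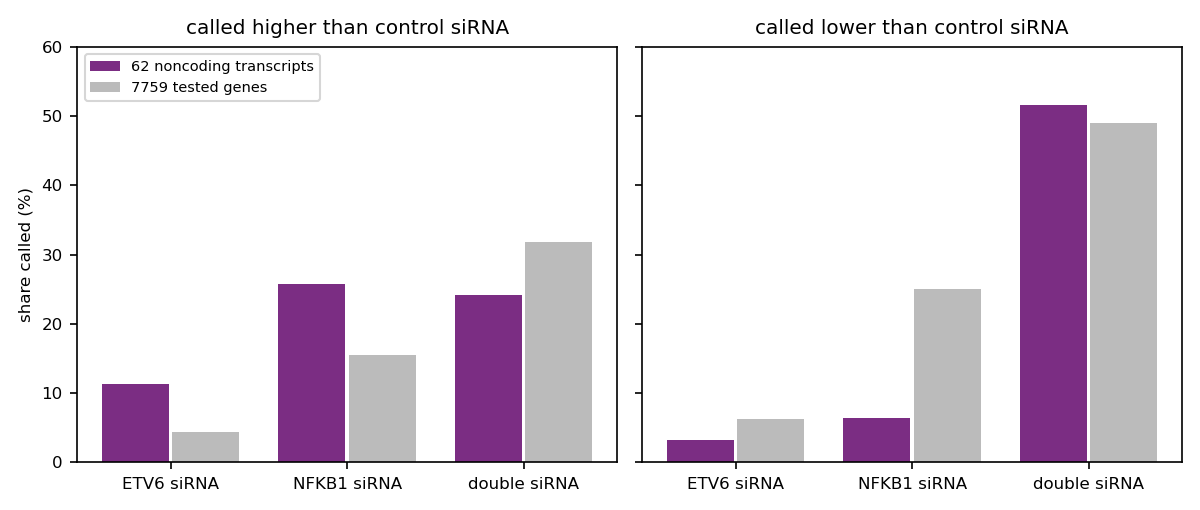
Share of genes called (%, limma adjusted p under 0.05) higher (left) or lower (right) than control siRNA, with bars for the 62 tested noncoding transcripts beside bars for all 7759 tested genes. Members exceed all genes among the higher calls for each single siRNA (11.3% and 25.8%, against 4.38% and 15.5%) and lie near them among the lower calls for double siRNA (51.6%, against 49%).

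**Figure D2:**
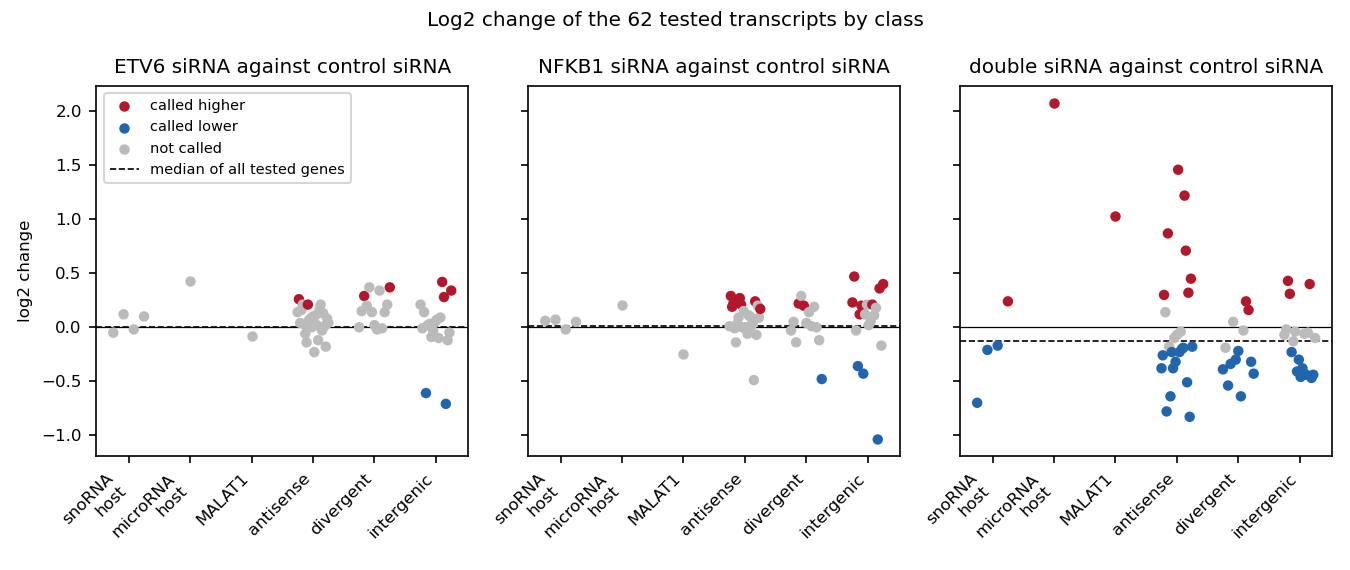
Log2 change against control siRNA (vertical axis) of the 62 tested members, one point each, by class (horizontal axis) for ETV6, NFKB1 and double siRNA. Red and blue points were called higher and lower, grey points were not called, and the dashed line is the median of all tested genes; the highest point with double siRNA is MIR100HG at 2.08.

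All 4 snoRNA hosts were called with double siRNA, 3 lower and 1 higher, and 0 of 4 with either single siRNA. With so many genes called with double siRNA (31.9% higher and 49% lower), calls in all 4 say little of the class. SNHG17, whose introns encode small nucleolar RNAs of the SNORA71 family, read 9.46, 9.52 and 9.48 with double siRNA, 10.22, 10.09 and 10.12 with ETV6 siRNA, 10.25, 10.26 and 10.24 with NFKB1 siRNA, and 10.20, 10.25 and 10.12 with control siRNA. The double siRNA arrays lay below the 9 others, and the log2 change against control was -0.70 (SE 0.05, adjusted p = 1.25e-06), with -0.67 on its second probe set. SNHG19 and SNHG32 changed by -0.21 (SE 0.06, adjusted p = 0.00823) and -0.17 (SE 0.04, adjusted p = 0.00431), against -0.13 for the median of all genes. SNHG33 read 9.50, 9.57 and 9.49 with double siRNA and 9.34, 9.26 and 9.25 with control siRNA, a log2 change of 0.24 (SE 0.05, adjusted p = 0.00114). This call was lost when the arrays were shifted to the same median (0.12, adjusted p = 0.0941). In bulk RNA a fall in each cell and a smaller share of cells that make the transcript cannot be told apart.

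A list was made of genes for proteins of small nucleolar RNA particles and for factors of their assembly and of the nucleolus. Of 17 tested, 13 were called lower and 2 higher with double siRNA, against 49% and 31.9% of all tested genes. Their median log2 change was -0.40 against -0.13. FBL, the methyltransferase of box C/D particles, changed by -0.48 (SE 0.05, adjusted p = 9.8e-06) and GAR1, a core protein of box H/ACA particles, by -0.59 (SE 0.06, adjusted p = 8.93e-06). TCOF1, a nucleolar factor of ribosomal DNA transcription, changed by -0.74 (SE 0.08, adjusted p = 9.65e-06). None of the 17 was called with ETV6 siRNA, and 3 were called higher and 6 lower with NFKB1 siRNA (15.5% and 25.1% of all tested genes).

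MIR100HG read 9.34, 9.20 and 9.41 with double siRNA, 7.52, 7.80 and 7.70 with ETV6 siRNA, 7.39, 7.65 and 7.33 with NFKB1 siRNA, and 7.14, 6.97 and 7.62 with control siRNA. All double siRNA arrays lay more than 1 log2 unit above every other array, and the groups of the single siRNAs overlapped with control. Its log2 change with double siRNA was 2.08 (SE 0.15, adjusted p = 1.23e-06), a 4.22-fold rise, and it exceeded ETV6 siRNA by 1.65 and NFKB1 siRNA by 1.86. The double siRNA arrays helped its mean to pass the level limit of 7.54, since arrays of each other group lay partly under it. The double siRNA call held in all 22 alternatives, the fit with no filter among them. Against control the changes with the single siRNAs were 0.43 (ETV6, adjusted p = 0.0958) and 0.21 (NFKB1, adjusted p = 0.264). Without control replicate 3, whose level was the highest of the controls, they were 0.62 (adjusted p = 0.0045) and 0.40 (adjusted p = 0.013), and both passed the threshold.

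The other microRNA hosts lay under the filter, and their values come from a fit of all 10346 genes. MIR1915HG read 6.32, 6.47 and 6.10 with double siRNA, 6.52, 6.62 and 6.08 with NFKB1 siRNA, 7.20, 7.05 and 6.98 with ETV6 siRNA and 7.02, 6.97 and 6.61 with control siRNA. It was called lower with double siRNA (-0.57, SE 0.15, adjusted p = 0.00551) and with NFKB1 siRNA (-0.46, SE 0.15, adjusted p = 0.0379), although in the second comparison the arrays overlapped. MIRLET7BHG was called higher with NFKB1 siRNA (0.50, SE 0.12, adjusted p = 0.00717) and with double siRNA (0.29, adjusted p = 0.0415), and MIR4435-2HG lower with NFKB1 siRNA (-0.18, adjusted p = 0.0372).

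Of 12 tested genes of microRNA processing 7 were called lower and 2 higher with double siRNA, against 49% and 31.9% of all tested genes. With NFKB1 siRNA 3 were lower, near the 25.1% of all tested genes. With ETV6 siRNA 3 were lower, against 6.28% of all tested genes. DICER1, the enzyme that cuts microRNA precursors in the cytoplasm, changed by -1.67 with NFKB1 siRNA (SE 0.17, adjusted p = 2.66e-05). TNRC6B, a scaffold of microRNA silencing, changed by -1.03 with NFKB1 siRNA (SE 0.13, adjusted p = 0.000107) and by -0.60 with ETV6 siRNA (SE 0.13, adjusted p = 0.0123). With double siRNA TARBP2, a partner of DICER1, changed by -0.66 (SE 0.07, adjusted p = 7.84e-06) and the helicase gene DDX17 by 0.48 (SE 0.05, adjusted p = 1.17e-05).

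MALAT1, an abundant nuclear RNA of the speckles where splicing factors gather, read 11.89, 10.95 and 11.68 with double siRNA, 10.29, 10.60 and 10.31 with ETV6 siRNA, 10.53, 10.17 and 9.99 with NFKB1 siRNA, and 10.32, 10.52 and 10.60 with control siRNA. The double siRNA arrays lay above all others but were spread widely (11.51 ± 0.49, SD, n = 3, against 10.48 ± 0.14 in control), with replicate 2 the lowest, as it was on all of its probe sets. The log2 change was 1.03 (SE 0.21, adjusted p = 0.000783) and 1.31 without that replicate. MALAT1 has 9 probe sets in the table, with mean levels between 4.98 and 10.65. On all 9 the double siRNA arrays lay above the 3 control arrays, by 0.74 to 1.61, and on all 9 the arrays of each single siRNA overlapped with control. These 9 probe sets measure 1 transcript on the same RNA and are not replicates, and some bind sequences that other transcripts may share.

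**Figure D3:**
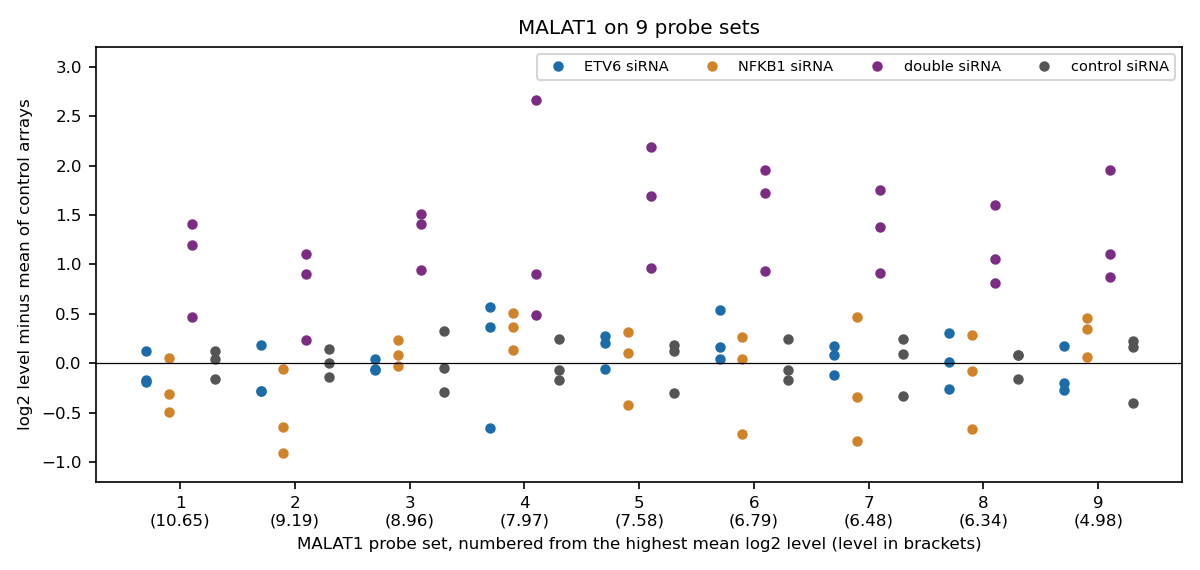
Log2 level of MALAT1 in each array minus the mean of the control arrays (vertical axis) on its 9 probe sets, ordered from the highest mean level (horizontal axis), for ETV6, NFKB1, double and control siRNA. Every double siRNA point lies above the control points of its probe set, with mean differences of 0.74 to 1.61.

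Antisense transcripts held 2 of the 4 rises over 2-fold among tested members. Of 25 tested, 7 were called higher and 13 lower with double siRNA, near the 31.9% and 49% of all tested genes. Their median log2 change was -0.18. With NFKB1 siRNA 7 were higher and 0 lower (15.5% and 25.1% of all tested genes). With ETV6 siRNA 2 were higher and 0 lower (4.38% and 6.28% of all tested genes). OIP5-AS1, whose mouse counterpart Cyrano directs the destruction of miR-7, read 11.02, 11.07 and 11.06 with double siRNA, 9.25, 9.57 and 9.25 with ETV6 siRNA, 9.60, 9.56 and 9.61 with NFKB1 siRNA, and 9.44, 9.44 and 9.89 with control siRNA. The double siRNA arrays agreed closely and stood above the rest, with a log2 change of 1.46 (SE 0.12, adjusted p = 1.93e-06), a 2.75-fold rise. Its other 2 probe sets gave 1.58 and 0.22, so the size of the rise depended on the probe set. The probe set with 0.22 was below control in every ETV6 siRNA array (-0.29) and above control in every NFKB1 siRNA array (0.34).

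SOX21-AS1, which starts beside the gene of the neural transcription factor SOX21, read 8.67, 8.59 and 8.60 with double siRNA and 7.21, 7.40 and 7.59 with control siRNA. The single siRNA arrays read between 7.28 and 7.74 and overlapped with control, and the log2 change with double siRNA was 1.22 (SE 0.11, adjusted p = 2.73e-06). Here too the double siRNA arrays raised the mean that was held against the limit of 7.54, and the call held in all 22 alternatives. FGD5-AS1 read 10.78, 10.84 and 10.84 with double siRNA and 9.79, 9.96 and 10.10 with control siRNA, a log2 change of 0.87 (SE 0.08, adjusted p = 2.96e-06). THAP9-AS1 (0.71, SE 0.20, adjusted p = 0.00564), ZNF407-AS1 (0.45, adjusted p = 0.00137) and WAC-AS1 (0.32, adjusted p = 0.00561) rose less.

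Control replicate 3, singled out after its values were seen, was often the control array nearest the double siRNA arrays. Among the members called higher with double siRNA, control replicate 3 was the highest control array for 12 of 15, and over all genes called higher it was the highest for 83.5%. Among members called lower it was the lowest control array for 15 of 32, against 76.3% over all genes called lower. Without that array the log2 changes of MIR100HG, OIP5-AS1 and SOX21-AS1 with double siRNA were 2.27, 1.61 and 1.32.

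Among the tested members the 2 largest falls with double siRNA were in antisense transcripts as well. ZNF232-AS1 read 9.08, 9.21 and 8.99 with double siRNA, 9.87, 9.73 and 9.65 with ETV6 siRNA, 10.15, 10.20 and 10.03 with NFKB1 siRNA, and 9.96, 10.05 and 9.77 with control siRNA. It lay below all other arrays, with a log2 change of -0.83 (SE 0.09, adjusted p = 6.78e-06). FAM131B-AS2 read 9.01, 9.24 and 9.07 with double siRNA and 9.92, 10.07 and 9.66 with control siRNA, a change of -0.78 (SE 0.09, adjusted p = 1.87e-05), and its second probe set gave -0.51. HOXD-AS2, from the cluster of homeobox genes that pattern the limbs and trunk, changed by -0.64 (SE 0.07, adjusted p = 8.57e-06), and TRIM52-AS1 by -0.51 (SE 0.07, adjusted p = 3.9e-05).

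CLN8-AS1 and ILRUN-AS1 were called higher with both single siRNAs and lower with the double, but the ETV6 call of ILRUN-AS1 held in only 9 of 22 alternatives. CLN8-AS1 read 8.22, 8.28 and 8.28 with double siRNA, 8.82, 8.75 and 8.77 with ETV6 siRNA, 8.80, 8.90 and 8.74 with NFKB1 siRNA, and 8.49, 8.56 and 8.52 with control siRNA. The single siRNA arrays all lay above and the double siRNA arrays all below control, with log2 changes of 0.26 (ETV6, SE 0.05, adjusted p = 0.00885), 0.29 (NFKB1, SE 0.05, adjusted p = 0.00112) and -0.26 (double, SE 0.05, adjusted p = 0.00059). The ETV6 call was lost in the fit of only the groups compared (0.26, adjusted p = 0.0579). For ILRUN-AS1 they were 0.21, 0.27 and -0.23 (adjusted p = 0.04, 0.00383 and 0.00344). The ETV6 call of ILRUN-AS1 was lost without ETV6 replicate 1 (0.17, adjusted p = 0.149) or 3, or replicate 1 or 2 of the NFKB1, double or control siRNA groups. It was lost too with the replicate number as a block (adjusted p = 0.0615), with no filter (adjusted p = 0.0581), with each probe set on its own (adjusted p = 0.0532), with trend and robust variances (adjusted p = 0.0821) and with only the groups compared (adjusted p = 0.125). KRT10-AS1 (0.21, adjusted p = 0.0394) and TRIM52-AS1 (0.24, adjusted p = 0.0155) were called higher with NFKB1 siRNA. KRT10-AS1 lost this call without control replicate 3 (0.11, adjusted p = 0.0928) and without any array of the 3 siRNA groups, and TRIM52-AS1 without NFKB1 replicate 2 (0.22, adjusted p = 0.0594).

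Of the 13 tested divergent transcripts 8 were called lower and 2 higher with double siRNA, against 49% and 31.9% of all tested genes. Their median log2 change was -0.30. With NFKB1 siRNA 1 was lower and 2 were higher (25.1% and 15.5% of all tested genes). With ETV6 siRNA 0 were lower and 2 higher (6.28% and 4.38% of all tested genes). ZDHHC12-DT separated the single siRNAs: it read 9.56, 9.53 and 9.54 with ETV6 siRNA, 8.82, 8.66 and 8.60 with NFKB1 siRNA, 8.71, 8.83 and 8.70 with double siRNA, and 9.13, 9.03 and 9.36 with control siRNA. No ETV6 or NFKB1 siRNA array overlapped with control, and the log2 changes were 0.37 (SE 0.08, adjusted p = 0.0146), -0.48 (SE 0.08, adjusted p = 0.000928) and, for double siRNA, -0.43 (SE 0.08, adjusted p = 0.000499). ETV6 siRNA exceeded NFKB1 siRNA by 0.85 (SE 0.08, adjusted p = 2.63e-05). The call with ETV6 siRNA was lost without ETV6 replicate 1 (0.36, adjusted p = 0.0563).

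CRIM1-DT read 10.53, 10.50 and 10.50 with ETV6 siRNA, 10.14, 10.09 and 10.01 with NFKB1 siRNA, 9.63, 9.72 and 9.68 with double siRNA, and 10.26, 10.24 and 10.15 with control siRNA. It rose with ETV6 siRNA (0.29, SE 0.05, adjusted p = 0.00461) and fell with double siRNA (-0.54, SE 0.05, adjusted p = 4.15e-06). The ETV6 call was not kept when only the groups compared were fitted (0.29, adjusted p = 0.0512). Both of its probe sets gave these directions without overlap. MAP3K2-DT changed by -0.64 with double siRNA (SE 0.07, adjusted p = 7.65e-06), with arrays at 8.18, 8.22 and 8.18 against 8.89, 8.84 and 8.76 in control.

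**Figure D4:**
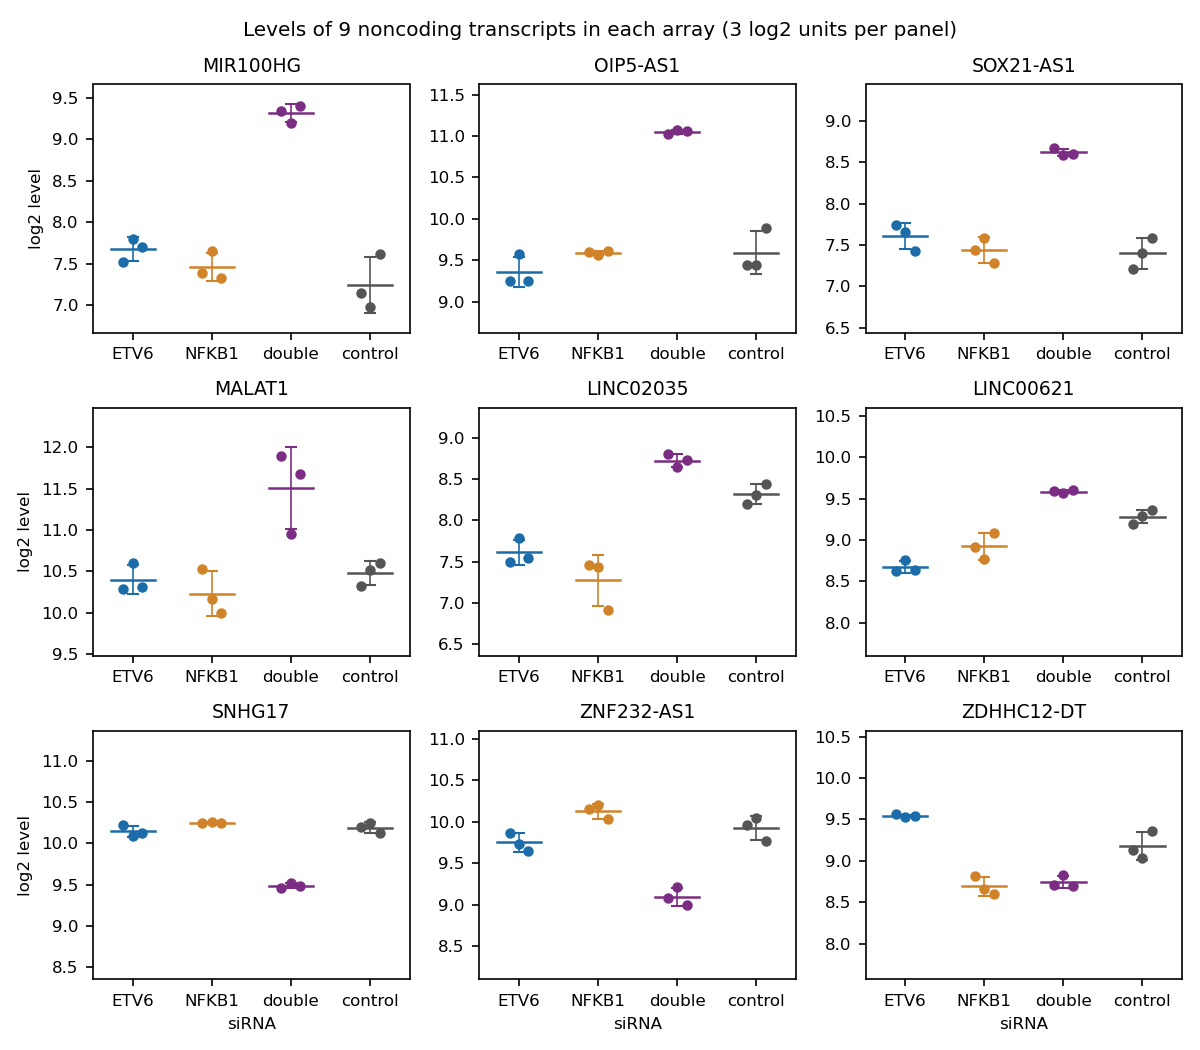
Log2 level (vertical axis, 3 log2 units in each panel) of 9 members in each array, with the group mean and SD (lines and bars, n = 3), for ETV6, NFKB1, double and control siRNA. MIR100HG, OIP5-AS1, SOX21-AS1 and MALAT1 are highest with double siRNA, LINC02035 and LINC00621 lie below control with each single siRNA and above it with double siRNA, and ZDHHC12-DT separates ETV6 siRNA (9.53 to 9.56) from NFKB1 siRNA (8.60 to 8.82).

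Among tested members intergenic transcripts held the strongest responses to the single siRNAs. Of 18 tested, 3 were called higher and 2 lower with ETV6 siRNA (4.38% and 6.28% of all tested genes). With NFKB1 siRNA 7 were higher and 3 lower (15.5% and 25.1% of all tested genes). With double siRNA 3 were higher and 8 lower (31.9% and 49% of all tested genes). LINC02035 read 7.5, 7.79 and 7.55 with ETV6 siRNA, 7.46, 7.44 and 6.92 with NFKB1 siRNA, 8.80, 8.64 and 8.73 with double siRNA, and 8.20, 8.31 and 8.44 with control siRNA. All arrays of the single siRNAs lay below control and all double siRNA arrays above it. The log2 changes were -0.71 (ETV6, SE 0.13, adjusted p = 0.00675), -1.04 (NFKB1, SE 0.13, adjusted p = 0.000136) and 0.40 (double, SE 0.13, adjusted p = 0.0146). The last call was lost without double replicate 1 (0.37, adjusted p = 0.0502) or control replicate 1 (0.35, adjusted p = 0.0537).

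LINC00621 also lay below control with each single siRNA and above it with double siRNA, but was lowest with ETV6 siRNA, with 8.62, 8.76 and 8.64 after ETV6 siRNA, 8.91, 8.77 and 9.09 after NFKB1 siRNA, 9.59, 9.57 and 9.60 after double siRNA, and 9.20, 9.29 and 9.36 after control siRNA. The changes were -0.61 (SE 0.08, adjusted p = 0.000834), -0.36 (SE 0.08, adjusted p = 0.0034) and 0.31 (SE 0.08, adjusted p = 0.00291), and no group overlapped with control. Its only probe set is of a type that can bind related sequences. LINC00674 was called lower with NFKB1 siRNA (-0.43, SE 0.09, adjusted p = 0.0033), with -0.46 on its second probe set.

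LINC03011, whose promoter is printed above, read 8.92, 8.86 and 8.74 with ETV6 siRNA, 9.0, 8.88 and 8.81 with NFKB1 siRNA, 8.42, 8.50 and 8.29 with double siRNA, and 8.54, 8.48 and 8.48 with control siRNA. Both single siRNAs lay above control without overlap (0.34, SE 0.07, adjusted p = 0.00927 for ETV6 and 0.40, SE 0.07, adjusted p = 0.000979 for NFKB1), and double siRNA overlapped with it. LINC01503 was higher with ETV6 siRNA (0.42, SE 0.09, adjusted p = 0.0135) and lower with double siRNA (-0.44, SE 0.09, adjusted p = 0.000852), and the ETV6 call was lost without ETV6 replicate 1 or 3 (0.40 and 0.38, adjusted p = 0.056 and 0.0585). LINC01551 was higher with ETV6 siRNA (0.28, adjusted p = 0.0337), but lost the call without any 1 of 7 arrays, which were ETV6 replicates 1 (0.23, adjusted p = 0.133), 2 and 3, NFKB1 replicate 2, double replicate 1 and control replicates 1 and 3.

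LINC00339 was highest with NFKB1 siRNA, at 8.60, 8.57 and 8.43, against 8.07, 8.14 and 7.97 with control siRNA. ETV6 siRNA (8.0 to 8.13) and double siRNA (7.91 to 8.11) overlapped with control, and the log2 change with NFKB1 siRNA was 0.47 (SE 0.07, adjusted p = 0.000376). LINC02381 rose with NFKB1 siRNA (0.36, SE 0.06, adjusted p = 0.00108) and fell with double siRNA (-0.47, SE 0.06, adjusted p = 3.78e-05). LINC01119 (0.21, adjusted p = 0.00756), LINC00205 (0.23, adjusted p = 0.0185) and LINC00667 (0.20, adjusted p = 0.0253) were also called higher with NFKB1 siRNA. The last 2 lost the call without NFKB1 replicate 2 (0.18, adjusted p = 0.0802 and 0.16, adjusted p = 0.1), NFKB1 replicate 1 or control replicate 2, and LINC00667 also without control replicate 3. The other probe sets of LINC00667 ran from -0.19 to 0.25 with NFKB1 siRNA.

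With double siRNA LINC01003 (-0.46, SE 0.07, adjusted p = 5.73e-05) and LINC02762 (-0.44, SE 0.08, adjusted p = 0.000331) were among the lowest intergenic transcripts. LINC00467 was called higher (0.43, SE 0.16, adjusted p = 0.0276), which did not hold without double replicate 1 or 2 or control replicate 1 or 2 (0.35 to 0.43, adjusted p = 0.0565 to 0.0989).

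The double siRNA response differed from the sum of the single responses in most members, as in most tested genes. ETV6 itself was lowered less with double siRNA (7.29 to 7.44) than with ETV6 siRNA alone (6.60 to 6.80). The part of this difference in the interaction was not tested. The interaction term (double minus ETV6 minus NFKB1 plus control) was called positive for 10 and negative for 39 of the 62 members. These are 16.1% and 62.9%, against 36.5% and 49.8% of all tested genes. The term was 79% called in either direction among members. The interaction term was 2.15 for LINC02035 (SE 0.19, adjusted p = 3.77e-06), 1.69 for OIP5-AS1 (SE 0.16, adjusted p = 6.2e-06) and 1.43 for MIR100HG (SE 0.21, adjusted p = 6.47e-05). At the other end stood FAM131B-AS2 with -0.98 (SE 0.13, adjusted p = 4.14e-05) and LINC01503 with -0.97 (SE 0.13, adjusted p = 3.6e-05). Against ETV6 siRNA 13 members were called higher and 41 lower with double siRNA (34.9% and 51.2% of all genes), and against NFKB1 siRNA 15 and 39 (37.7% and 51.4%). In 36 of the 62 members double siRNA was called lower than both single siRNAs and in 12 higher than both, against 47.7% and 32.6% of all tested genes. ETV6 siRNA against NFKB1 siRNA gave 8 members higher and 7 lower (21.8% and 13.1% of all genes). This split turned to 4 and 18 when arrays were shifted to the same median (16% and 26.9% of all genes).

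Antisense and divergent transcripts were set beside the coding gene that gives them their name. Of 126 such members 104 have that partner in the table, and in 23 pairs both were tested. With double siRNA both were called in 13 pairs, in the same direction in 10 (3 higher and 7 lower) and in opposite directions in 3, always with the noncoding transcript lower and the partner higher. With 31.9% of all tested genes called higher and 49% lower, many unrelated pairs would also be called alike. These counts therefore say little of the pairs. Across the 23 pairs, which share their arrays, the correlation of the log2 changes was 0.02. It was 0.42 over the 13 antisense pairs and -0.14 over the 10 divergent pairs. With NFKB1 siRNA these were 0.52 and -0.24, and with ETV6 siRNA -0.10 and 0.04. With so few pairs these values are descriptions. With NFKB1 siRNA both were called in 2 pairs, 1 of them in the same direction, and with ETV6 siRNA in 0. Of all tested genes 15.5% were called higher and 25.1% lower with NFKB1 siRNA, and 4.38% and 6.28% with ETV6 siRNA.

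MAP3K2-DT and its partner MAP3K2, a kinase of a stress signalling cascade, moved apart: the partner changed by 1.91 with double siRNA (adjusted p = 1.23e-05) and the divergent transcript by -0.64. FLVCR1-DT changed by -0.30 and FLVCR1, a membrane transporter, by 1.08 (adjusted p = 4.79e-06). The third pair was OTUD6B-AS1 (-0.23) with OTUD6B (0.58, adjusted p = 0.0046), but the dimmer probe set of OTUD6B-AS1 gave 0.51, the direction of the partner, with arrays that overlapped with control. These 2 pairs beside MAP3K2-DT were named after their values were seen. For 29 divergent members RefSeq lists promoter windows of both genes, and in 26 of them, FLVCR1-DT included, the windows overlap on opposite strands.

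Other pairs moved together or in only 1 member. ZNF232-AS1 (-0.83) and ZNF232 (-0.36, adjusted p = 0.000712) fell together, as did ZDHHC12-DT (-0.43) and ZDHHC12 (-0.55, adjusted p = 4.51e-06), and CLN8-AS1 (-0.26) and CLN8 (-0.47, adjusted p = 0.00194). OIP5-AS1 (1.46) and OIP5, a gene of centromere assembly (0.16, adjusted p = 0.0305), both rose, as did WAC-AS1 (0.32) and WAC (0.38, adjusted p = 0.00058). CRIM1-DT (-0.54) fell with double siRNA, while CRIM1 changed by 0.00 (adjusted p = 0.963). With NFKB1 siRNA CRIM1 fell and CRIM1-DT was not called, with CRIM1-DT at -0.14 (adjusted p = 0.052) and CRIM1 at -0.59 (adjusted p = 1.57e-05). ILRUN-AS1 and ILRUN, a regulator of inflammatory signalling, rose together with NFKB1 siRNA (0.27 and 0.32) and fell together with double siRNA (-0.23 and -0.28).

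**Figure D5:**
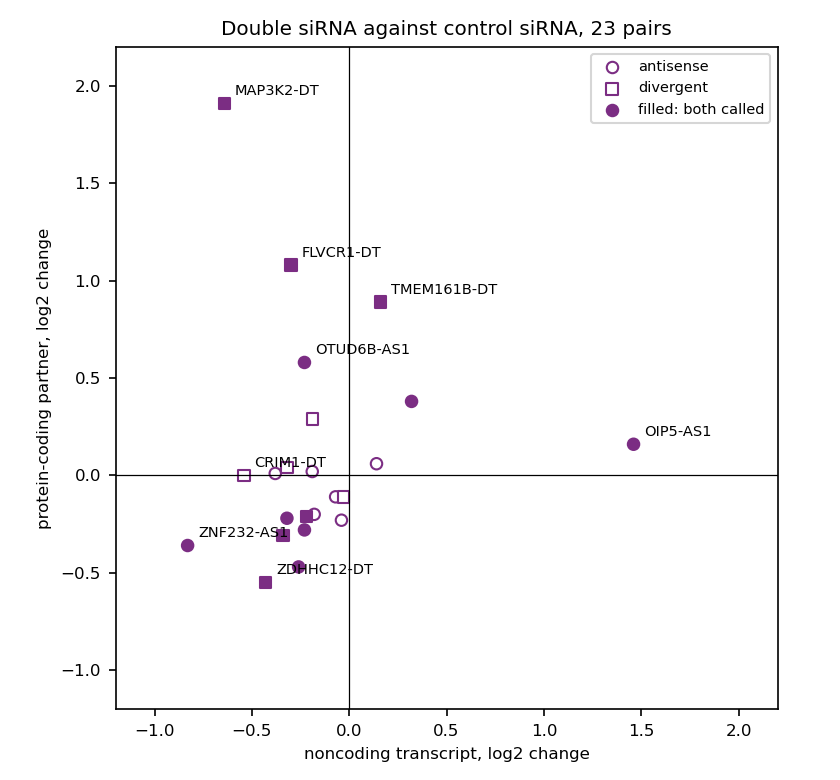
Log2 change with double siRNA against control siRNA of 23 noncoding transcripts (horizontal axis) and of their protein-coding partners (vertical axis). Circles are antisense and squares divergent transcripts, filled where both were called. In the upper left quadrant lie 3 filled points. The correlation was 0.02 across all pairs, 0.42 across antisense and -0.14 across divergent pairs.

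The 117 members under the filter were read from the fit of all genes. With NFKB1 siRNA 23 of them were called higher and 4 lower, against 11.9% and 19.2% of all 2587 genes under the filter. With double siRNA the counts were 24 and 32, against 35.8% and 36.9%, and with ETV6 siRNA 3 and 2, against 2.44% and 3.32%. As among the tested members, higher calls outnumbered lower ones with NFKB1 siRNA while all genes showed the opposite in the values as deposited. Over all tested genes this opposite was lost with the median shift, where 63.1% of calls were higher, and with quantile normalization (58.1%). RUSC1-AS1 averaged 6.96 with double siRNA, 6.71 with NFKB1 siRNA and 5.79 with control siRNA, changes of 1.17 (adjusted p = 8.97e-05) and 0.92 (adjusted p = 0.00196). LINC01279 averaged 6.28 with double siRNA and 5.03 with control siRNA (1.25, adjusted p = 1.72e-05), and was lower with NFKB1 siRNA (-0.56, adjusted p = 0.00969). PSMA3-AS1 (1.07) and DLX6-AS1 (0.99) also rose with double siRNA, and LINC01224 (-0.88) and LINC00973 (-0.74) fell. These 6 were chosen as the extremes after their values were seen.

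Among 17 tested members with more than 1 probe set, all probe sets pointed the same way in 14 with double siRNA, in 11 with NFKB1 siRNA and in 12 with ETV6 siRNA. The exceptions with double siRNA were LINC00667 (-0.13 to 1.00), MAGI2-AS3 (-0.10 to 0.90) and OTUD6B-AS1 (-0.23 to 0.51), so a call on the brightest probe set need not hold for the others.

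Other long noncoding genes that the rule did not take in and genes of noncoding RNA turnover are given for comparison. Of 9 tested genes of the first list 5 were called higher and 3 lower with double siRNA, against 31.9% and 49% of all tested genes. Their median log2 change was 0.19 against -0.13 over all genes. The list holds 1 protein-coding gene, TRERF1, by mistake. SOX2-OT, which overlaps the stem cell gene SOX2, changed by 2.28 (SE 0.21, adjusted p = 3.36e-06), and NORAD, a decoy of Pumilio proteins, by 0.60 (SE 0.08, adjusted p = 2.34e-05). DANCR, which hosts a small nucleolar RNA, changed by -0.64 (SE 0.04, adjusted p = 1.16e-06). With NFKB1 siRNA 2 were higher and 3 lower, among them NORAD (-0.42, adjusted p = 0.00129), against 15.5% and 25.1% of all tested genes. With ETV6 siRNA 0 of the list were called.

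The nuclear exosome and its adaptors degrade many noncoding transcripts. The list of their genes also takes in INTS11 and CPSF3, which belong to neither. Of 21 tested genes of the list, 11 were called lower and 7 higher with double siRNA, near the 49% and 31.9% of all tested genes. With NFKB1 siRNA 6 were lower and 1 higher (25.1% and 15.5% of all tested genes). With ETV6 siRNA 3 were lower (6.28% of all tested genes). The exosome subunit gene EXOSC5 changed by -0.89 (SE 0.07, adjusted p = 1.48e-06) and EXOSC4 by -0.81 (SE 0.05, adjusted p = 9.68e-07) with double siRNA, while RBM7, an RNA-binding adaptor that is also in the paraspeckle list, changed by 1.02 (SE 0.10, adjusted p = 4.32e-06). Of 15 factors of nonsense-mediated decay, which destroys transcripts with an early stop codon, 7 were called higher and 7 lower with double siRNA. The shares over all tested genes were 31.9% and 49%. PNRC2, which links decay to decapping, changed by 1.31 (SE 0.09, adjusted p = 1.23e-06) and UPF1, the central helicase, by -0.60 (SE 0.08, adjusted p = 4.32e-05). With NFKB1 siRNA 3 of these factors were higher and 5 lower (15.5% and 25.1% of all tested genes), and with ETV6 siRNA 0 were called.

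Paraspeckles are nuclear bodies built on the transcript NEAT1. Of 27 tested genes of their proteins 10 were called higher and 13 lower with double siRNA, near the 31.9% and 49% of all tested genes. With NFKB1 siRNA 1 was higher and 9 were lower (15.5% and 25.1% of all tested genes). With ETV6 siRNA 1 was lower (6.28% of all tested genes). NUDT21, a subunit of a cleavage factor of messenger RNA ends, changed by -1.55 with NFKB1 siRNA (SE 0.08, adjusted p = 5.88e-07) and by -0.76 with ETV6 siRNA (SE 0.08, adjusted p = 0.000315). With double siRNA RBM14 changed by -0.76 (SE 0.06, adjusted p = 1.93e-06), and ZNF24, a zinc finger gene, by 1.47 (SE 0.16, adjusted p = 8.31e-06).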

How the data were processed

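The values are log2 probe set levels from Affymetrix expression arrays, deposited by the authors, 1 array per sample; background correction, summarization and normalization are not given in the sources used here. Of 19520 probe sets 17313 named 1 gene in the platform's annotation, 857 several, and 1350 none or were control probe sets. For 17307 the gene identifier matched RefSeq (GRCh38.p14), with 0 symbols to update. The brightest probe set stood for each of 10346 genes, and genes under the 25th percentile of mean level were left out. Identical arrays were looked for and 0 pairs found, and every column was used.

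The 12 arrays entered a single limma 3.58.1 model with a mean for each group (lmFit and eBayes, R 4.3.3, 8 residual and 3.42 prior degrees of freedom). The 7 comparisons were each siRNA against control, the pairs of siRNA groups and the interaction. Benjamini-Hochberg adjustment of the two-sided p-values ran over 7759 genes, with calls at an adjusted p under 0.05. With 3 arrays a side an exact permutation test reaches 0.1 at best, so none was run. The fit was tested on simulated data.

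The members, gene lists and naming rule were chosen with earlier results of these data known. Named are MALAT1, all SNHG and microRNA host members, and up to 10 highest and 10 lowest called changes against control without overlap (5 and 5 for the interaction and for double against each single siRNA). Partners of named members are named too, with up to 4 genes of each list by adjusted p; any further gene is marked as picked with its values in view. Same-numbered arrays of different groups did not consistently vary together (18 pairs, correlations of -0.516 to 0.484, 5 over 0.1), so the numbers were not taken as pairs. The highest correlation between arrays of different groups was 0.636, for ETV6 replicate 2 with control replicate 3. A fit without both was also run. Alternatives were 2 other scalings, 2 other filters, other treatments of probe sets, array weights, trend and robust variances, fits of the compared groups alone, the replicate number as a block, and fits without single arrays.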

Additional observations from a re-analysis of the deposited data

Results flagged for a closer look

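The responses to the single siRNAs and to their combination differed most in 10 members by the interaction term of limma, which is double siRNA minus ETV6 siRNA minus NFKB1 siRNA plus control siRNA. Positive values, where double siRNA lay above what the single responses add up to, were 2.15 for LINC02035, 1.69 for OIP5-AS1, 1.43 for MIR100HG, 1.36 for MALAT1 (SE 0.30, adjusted p = 0.00113) and 1.27 for LINC00621 (SE 0.11, adjusted p = 3.36e-06). Negative values were -0.98 for FAM131B-AS2, -0.97 for LINC01503, -0.88 for TRIM52-AS1 (SE 0.10, adjusted p = 1.2e-05), -0.86 for ZNF232-AS1 (SE 0.12, adjusted p = 5.39e-05) and -0.84 for LINC03011 (SE 0.10, adjusted p = 1.59e-05). Each was called in the same direction under all 21 or 22 alternatives run for it.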

How the results depend on the processing

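Of 320 recomputed counts of called members 270 stayed within 1.5 times the reported ones, and 50 did not. Of 1981 recomputed log2 changes of named members 1896 kept direction and call, 64 lost the call, 11 gained it and 10 changed sign, all of these in changes that were not called. The cause of these shifts was not tested, except that a stricter filter tests fewer members and no filter tests more. Counts are given as higher and lower with ETV6 siRNA (reported 7 and 2), NFKB1 siRNA (16 and 4) and double siRNA (15 and 32), all against control siRNA. Without a filter, over 179 members, 4 were lower with ETV6 siRNA (4.83% of all genes). With NFKB1 siRNA 36 were then higher and 8 lower (13.3% and 22.7% of all genes). With double siRNA 39 were higher and 64 lower (32.6% and 45.6% of all genes). With a filter at the 50th percentile, over 25 members, the counts were 2 and 1 with ETV6 siRNA (5.06% and 7.69% of all genes). They were 5 and 4 with NFKB1 siRNA (16.3% and 26.4%) and 7 and 14 with double siRNA (30.8% and 50.3%). Array weights gave 18 and 7 with ETV6 siRNA (14.2% and 16% of all genes) and 31 and 9 with NFKB1 siRNA (30% and 30.6%). Fits of only the groups compared gave 2 higher and 2 lower with ETV6 siRNA (0.838% and 1.56% of all genes). With NFKB1 siRNA these fits gave 7 higher and 4 lower (7.15% and 16.8%). Quantile normalization gave 11 higher with ETV6 siRNA (5.77% of all genes) and 25 higher with NFKB1 siRNA (28.7%). The shift to the same median gave 27 higher with NFKB1 siRNA (32.4%). The mean of the probe sets gave 8 lower with NFKB1 siRNA (24.6%). The higher share of calls over all genes with NFKB1 siRNA was 58.1% with quantile normalization and 63.1% with the median shift, against 38.1% as deposited.

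In the interaction no filter gave 24 positive and 105 negative members (36.8% and 48.4% of all genes) and the 50th percentile 6 and 14 (36% and 49.4%). For double against ETV6 siRNA they gave 31 and 88 (35.3% and 48.8% of all genes), and 7 and 15 (34.3% and 51.2%). For double against NFKB1 siRNA they gave 36 and 106 (38.4% and 50.2%), and 7 and 14 (36.7% and 51.5%). For ETV6 against NFKB1 siRNA no filter gave 16 and 17 (18.9% and 10.3% of all genes) and the 50th percentile 4 higher (23.8%). The median shift gave 4 and 18 (16% and 26.9%), quantile normalization 5 and 17 (18.2% and 22.6%), and array weights 20 lower (27.7%). There the share of higher calls among members was 18.2% with the median shift and 22.7% with quantile normalization, against 53.3% as deposited. Over all genes it was 37.4% and 44.6%, against 62.6%.

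Leaving out 1 array gave 3 to 10 higher and 2 to 2 lower with ETV6 siRNA, 8 to 18 and 4 to 6 with NFKB1 siRNA, and 12 to 16 and 31 to 33 with double siRNA. Double against ETV6 siRNA gave 12 to 13 and 36 to 41, double against NFKB1 siRNA 13 to 15 and 36 to 42, ETV6 against NFKB1 siRNA 4 to 12 and 4 to 14, and the interaction 10 to 11 and 36 to 43. The lowest counts came without ETV6 replicate 1 (3) and without NFKB1 replicate 1 or 2 (8). In ETV6 against NFKB1 siRNA fewer were higher without ETV6 replicate 1 (5), 2 (4) or 3 (5) or NFKB1 replicate 3 (5), and 4 were lower without ETV6 replicate 3 or NFKB1 replicate 1, against 14 without control replicate 3. Shares of all tested genes are not given for these fits. The counts therefore do not show whether members gained or lost calls more than other genes.

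MALAT1 with ETV6 siRNA was 0.02 with the mean of its probe sets. SNHG32 with ETV6 siRNA was 0.01 with quantile normalization, 0.02 with array weights, -0.04 to 0.02 when 1 array was left out (highest without control replicate 3), and 0.03 without that array and ETV6 replicate 2. With NFKB1 siRNA it was 0.07 with the median shift, 0.03 with quantile normalization, 0.01 with array weights, 0.02 without control replicate 3 and ETV6 replicate 2, and -0.04 to 0.02 when 1 array was left out, again highest without control replicate 3. With the replicate number as a block the counts were 8 and 2 with ETV6 siRNA (4.1% and 5.7% of all genes) and 17 and 4 with NFKB1 siRNA (16.2% and 24.9%). They were 15 and 33 with double siRNA (31.8% and 49.2%) and 10 and 39 in the interaction (36.4% and 49.7%). The labels do not say whether the numbers pair the samples.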
